A study of Mus musculus with 3 samples.

Results

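The 9 genes described here, *Neurod1*, *Neurod2*, *Neurod4*, *Neurog1*, *Neurog2*, *Neurog3*, *Atoh1*, *Nhlh1* and *Nhlh2*, encode proneural and neuronal differentiation factors of the basic helix-loop-helix (bHLH) family. They were read against the accessible peaks of dopaminergic neurons (DNs). A peak was assigned to a gene when it overlapped the GENCODE M21 gene body or lay within 50 kb of it, with at least 1 bp of overlap. By this rule 25 of the 55326 DN peaks (0.0452%) belonged to the 9 genes, and no peak was shared between them.

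The DN peaks came from single-nucleus ATAC-seq of the midbrain ventral tegmental area (VTA), an assay in which a transposase cuts open chromatin inside isolated nuclei. Tissue was taken from unperturbed wild-type male C57Bl/6Nl mice, aged 7 weeks for one library and 9 weeks for the other, and the DN nuclei of both libraries were merged into 1 list of peaks on mm10. A mouse embryonic stem cell sample of the same series was not analysed here. Each entry of the list is a position of 500 bp with no height, count or p-value, so the results below are descriptions of 1 pooled list, without replicate error.

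Proneural bHLH factors pair with an E protein (*Tcf3*, *Tcf4* or *Tcf12*) and bind a short DNA word, the E-box CANNTG, to commit neural progenitors to a neuronal fate and then drive their differentiation. Id proteins, which lack the basic DNA-binding region, sequester the E proteins, and the Hes and Hey repressors act downstream of Notch to hold progenitors undifferentiated. In the embryonic ventral midbrain, *Neurog2* is required for the normal generation of DNs. The nuclei profiled here were from adult neurons, long after that step.

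The peaks that overlap the genes themselves are shown first, because 5 peaks did so, in 3 genes. The *Neurod1* peak lay only partly in its gene, and the stretch shown for it is the part upstream. The stretches below are from mm10, 5′ to 3′ in the direction of transcription of the gene, and leave out untranslated exon sequence. Capitals mark CAGATG or CAGCTG, the E-boxes used by the Neurod, Neurog and Atoh factors and by related factors, read on either strand (CAGATG appears as CATCTG when it lies on the other strand).
Neurod1 start-site peak, upstream portion, chr2:79456752-79456997, minus strand: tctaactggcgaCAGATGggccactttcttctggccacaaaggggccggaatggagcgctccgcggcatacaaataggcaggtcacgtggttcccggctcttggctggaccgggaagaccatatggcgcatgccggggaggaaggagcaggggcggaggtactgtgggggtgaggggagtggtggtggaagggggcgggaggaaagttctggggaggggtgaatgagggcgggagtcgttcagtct
Neurog2 first peak, intron, chr3:127633458-127633720, plus strand: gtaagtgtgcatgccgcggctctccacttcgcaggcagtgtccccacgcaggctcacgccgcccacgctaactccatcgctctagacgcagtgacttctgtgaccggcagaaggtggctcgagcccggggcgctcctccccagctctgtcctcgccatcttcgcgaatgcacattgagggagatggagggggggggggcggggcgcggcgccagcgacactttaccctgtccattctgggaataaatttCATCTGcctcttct
Neurog2 second peak, coding sequence, chr3:127634171-127634470, plus strand: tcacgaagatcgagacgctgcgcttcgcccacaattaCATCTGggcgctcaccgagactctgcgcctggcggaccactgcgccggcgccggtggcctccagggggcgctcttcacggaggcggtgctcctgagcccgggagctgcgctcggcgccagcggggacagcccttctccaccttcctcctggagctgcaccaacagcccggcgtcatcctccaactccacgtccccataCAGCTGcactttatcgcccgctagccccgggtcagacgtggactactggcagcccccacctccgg
Nhlh2 gene-body peak, coding sequence, chr3:102012759-102013058, plus strand: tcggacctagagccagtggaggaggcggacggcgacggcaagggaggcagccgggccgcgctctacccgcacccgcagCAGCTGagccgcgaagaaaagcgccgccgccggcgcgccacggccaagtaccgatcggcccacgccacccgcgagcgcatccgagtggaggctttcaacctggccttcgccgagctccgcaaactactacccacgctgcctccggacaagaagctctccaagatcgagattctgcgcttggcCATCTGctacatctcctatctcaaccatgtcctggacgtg

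The next stretches are from peaks outside the gene bodies that hold CAGATG, shown as examples of E-box-bearing peaks away from the genes. The first is from the peak with the most CAGATG and CAGCTG words of the 25.
Neurod4 peak 34.4 kb upstream, chr10:130314507-130314806, minus strand: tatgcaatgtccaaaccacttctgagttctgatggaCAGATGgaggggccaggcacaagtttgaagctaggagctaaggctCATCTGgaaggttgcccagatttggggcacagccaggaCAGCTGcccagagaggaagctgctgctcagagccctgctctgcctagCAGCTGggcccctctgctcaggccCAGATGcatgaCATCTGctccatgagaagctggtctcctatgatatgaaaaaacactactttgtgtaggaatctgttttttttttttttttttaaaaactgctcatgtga
Neurod4 peak 16.8 kb downstream of the start, chr10:130263275-130263334, minus strand: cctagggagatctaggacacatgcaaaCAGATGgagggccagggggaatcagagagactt
Neurod2 peak 31.3 kb downstream of the start, chr11:98298174-98298233, minus strand: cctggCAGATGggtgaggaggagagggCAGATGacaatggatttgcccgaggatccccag

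The last pair of stretches comes from the RefSeq promoter table (GRCm38.p6, the same chromosome sequences as mm10). They are the 250 bases before the starts of *Atoh1* and *Neurog1*, which have CpG-rich starts but no peak within 1 kb of them. They hold 14 and 29 CpG dinucleotides, and neither CAGATG nor CAGCTG.
Atoh1 upstream of the start, chr6:64728875-64729124, plus strand: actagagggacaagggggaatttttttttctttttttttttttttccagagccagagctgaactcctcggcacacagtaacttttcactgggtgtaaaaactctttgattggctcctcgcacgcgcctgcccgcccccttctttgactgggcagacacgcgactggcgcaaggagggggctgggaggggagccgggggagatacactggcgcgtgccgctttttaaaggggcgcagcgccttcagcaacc
Neurog1 upstream of the start, chr13:56252181-56252430, minus strand: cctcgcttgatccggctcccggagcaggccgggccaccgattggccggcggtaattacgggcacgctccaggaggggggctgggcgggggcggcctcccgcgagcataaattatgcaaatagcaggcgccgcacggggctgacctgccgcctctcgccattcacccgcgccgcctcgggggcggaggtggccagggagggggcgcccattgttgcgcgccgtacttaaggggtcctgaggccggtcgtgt

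Of the 9 genes, 8 had at least 1 peak in the body or within 50 kb, against 83.2% of the 21755 protein-coding genes on the autosomes and X and 69.1% of those of at most 10 kb. *Atoh1* had none. Within 10 kb, 5 of 9 had a peak (*Neurod1*, *Neurod4*, *Neurog2*, *Nhlh1* and *Nhlh2*), against 72.3% of all protein-coding genes, and within 100 kb 9 of 9 had 1 or more, against 87.6%. At the start site, defined as within 1 kb of an annotated start, 2 of 9 had a peak, *Neurod1* and *Neurog2*, against 56.9% of all protein-coding genes and 38.1% of those of at most 10 kb. In the gene body 3 of 9 had a peak, *Neurod1*, *Neurog2* and *Nhlh2*, against 63.8% of all and 40.2% of the short genes. The short genes are the closer background, since 8 of the 9 members are between 1.67 and 5.42 kb long and *Neurod4* is 12.1 kb.

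**Figure D1:**
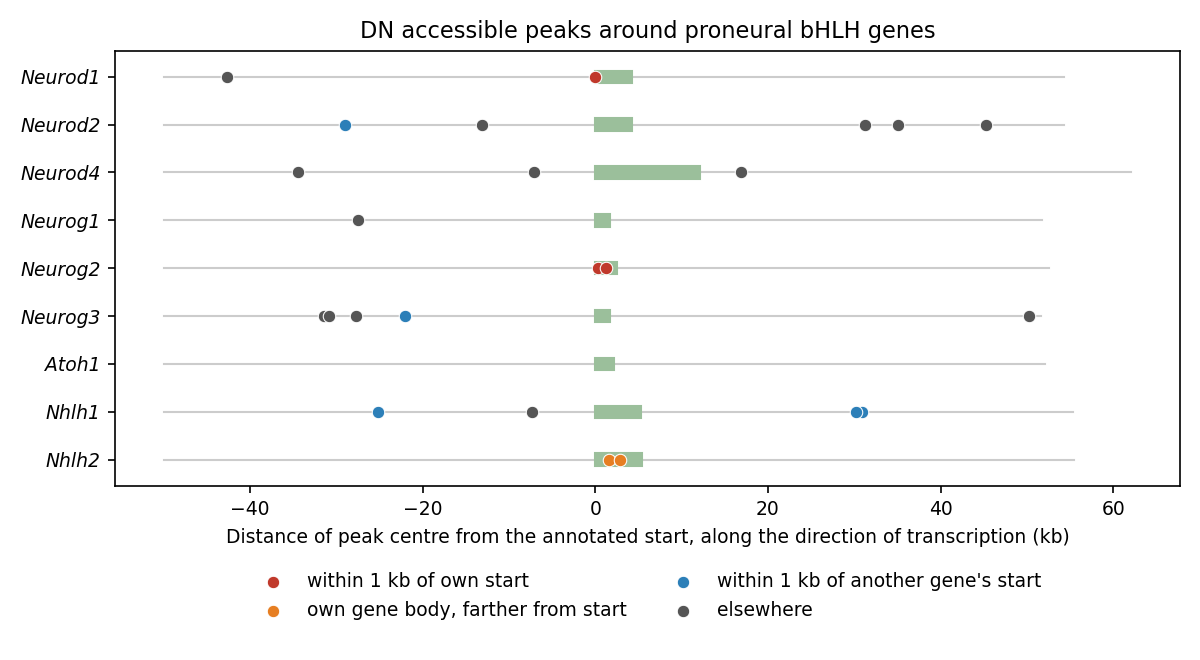
Each row is a gene, with the gene body as a green bar and the window searched as a grey line, and each point is the centre of a DN peak by its distance in kb from the annotated start, negative upstream. Points over or close to a gene body at the start are seen for *Neurod1* and *Neurog2* (3 peaks in all), 2 further peaks lie inside *Nhlh2*, and the *Atoh1* row is empty. A further *Nhlh2* peak is not drawn.

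The neurogenins start the neuronal programme in dividing progenitors. *Neurog2* (ENSMUSG00000027967.8, chr3:127633135-127635631, plus strand, 2497 bp) had 2 peaks, both inside the gene. The first began 86 bp after the start, with its centre 335 bp downstream, and covered 237 bp of untranslated exon and 263 bp of intron. The second had its centre 1186 bp downstream and covered 446 bp of coding sequence and 54 bp of untranslated exon. The 2 centres were 0.851 kb apart, and the peaks were GC-rich (66.2 and 66.6% GC). No other protein-coding gene starts within 50 kb of *Neurog2*, and no further DN peak lay in that window.

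*Neurog1* (ENSMUSG00000048904.5, chr13:56250478-56252163, minus strand, 1.69 kb), which specifies sensory neurons of cranial ganglia and the dorsal root ganglia, had a single peak. It lay 27.4 kb upstream and was nearer to the start of *Cxcl14*, a chemokine gene, at 16699 bp. *Neurog3* (ENSMUSG00000044312.4, chr10:62133090-62134763, plus strand, 1.67 kb), the determinant of pancreatic endocrine cells, had 5 peaks, none within 10 kb. Of these, 4 stood upstream, at 31.4, 30.8, 27.7 and 22.0 kb, and the last of them lay 1 bp from a start of *Fam241b*. The whole of *Neurog3* lies inside *Fam241b* on the opposite strand. The fifth peak was 50.2 kb downstream of the start. All 5 were nearer to a start of *Fam241b* than to that of *Neurog3*.

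The *Neurod* genes act after the neurogenins, in differentiating neurons. *Neurod1* (ENSMUSG00000034701.9, chr2:79452521-79456751, minus strand, 4.23 kb), needed for cerebellar and hippocampal granule cells and for pancreatic beta cells, was the one gene of the 9 with a peak over the start base itself. The peak was at chr2:79456498-79456997, with its centre 4 bp from the start, and covered 246 bp upstream of the gene, 201 bp of untranslated exon and 53 bp of intron. Over all protein-coding genes, 49.9% had a peak over a start base. The second *Neurod1* peak lay 42.7 kb upstream. The *Neurod1* body lies within the annotated limits of *Cerkl* on the same strand, but no start of another protein-coding gene was within 1 kb of its start-site peak.

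*Neurod2* (ENSMUSG00000038255.6, chr11:98325415-98329648, minus strand, 4.23 kb), a factor of cortical and hippocampal excitatory neurons, had 5 peaks, and the nearest began 12.9 kb from the start. On the upstream side, the centres were 13.1 and 29.0 kb away. The first was nearer to the start of *Ppp1r1b*, which encodes a phosphatase inhibitor of dopamine signalling, at 5653 bp, and the second lay 245 bp from a start of *Stard3*, which encodes an endosomal cholesterol-binding protein. On the downstream side they were 31.3, 35.0 and 45.2 kb away. *Neurod4* (ENSMUSG00000048015.4, chr10:130268152-130280240, minus strand, 12.1 kb), which acts in retinal and other neuronal differentiation, had 3 peaks. They lay 34.4 and 7.16 kb upstream and 16.8 kb downstream of the start, the last beyond the end of the gene. None was at the start site of another protein-coding gene, although the farthest upstream was nearer to *Tespa1* (8220 bp) than to *Neurod4*.

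*Atoh1* (ENSMUSG00000073043.5, chr6:64729125-64731245, plus strand, 2.12 kb), the determinant of cerebellar granule cells and inner-ear hair cells, stood at the low end. Its nearest peak was 78.8 kb from the start, and no other protein-coding gene starts in its 50-kb window. Among all genes with no other start in the window, 24.0% also had no peak. The entire window was thus without a called peak, which a list with no depth cannot separate from weak accessibility.

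The *Nhlh* genes are expressed as new neurons leave the cell cycle, and *Nhlh2* also acts in the hypothalamus. *Nhlh1* (ENSMUSG00000051251.3, chr1:172052292-172057573, minus strand, 5.28 kb) had 4 peaks, of which 3 were at start sites of neighbours. A pair, 30.2 and 30.9 kb downstream, lay at *Vangl2*, a planar cell polarity gene, and 1 peak, 25.2 kb upstream, lay at the start sites of *Ncstn*, a gamma-secretase subunit that takes part in Notch cleavage, and of *Copa*, a coatomer subunit. The remaining peak was 7.33 kb upstream and nearest to *Nhlh1* itself. *Nhlh2* (ENSMUSG00000048540.8, chr3:102010076-102015492, plus strand, 5.42 kb) had 3 peaks and no neighbour starting in its window. Of these, 2 were in the gene, 1589 and 2895 bp downstream of the outer start, 1.31 kb apart, with 65.8 and 63.6% GC. The nearer of them lay wholly in untranslated exon (500 bp), and the farther covered 337 bp of coding sequence and 163 bp of untranslated exon. *Nhlh2* would count among the genes with a start-site peak at 2 kb, and did not at 1 kb.

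By position, 3 of the 25 peaks were at a member's own start site, 2 were farther inside a member's body, 5 were at start sites of other protein-coding genes and 15 were elsewhere. They were split almost evenly between the upstream (13) and downstream (12) sides. A member's own start was the nearest protein-coding start for 13 of the 25. In the same windows 9 other protein-coding genes start, and 5 of those had a start-site peak, near the share of all protein-coding genes (56.9%). They were *Stard3*, *Fam241b*, *Vangl2*, *Ncstn* and *Copa*. The other 4, *Cerkl*, *Ppp1r1b*, *Tespa1* and *Cxcl14*, did not.

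Sorted into classes of sequence by a single order (start site, exon, intron, intergenic), 8 of the 25 peaks were at a protein-coding start site (32.0%, 95% exact binomial interval 14.9 to 53.5%), against 32.0% of all DN peaks. Intergenic peaks made up 60% (15 of 25, interval 38.7 to 78.9%) against 26.1% of all. Intronic peaks, outside start sites, were 0 of 25 (interval 0 to 13.7%, and a limit of 12% when a count of 0 is read as at most 3 counts), against 35.0% of all. The sequence that the windows hold of each class was not measured. The intervals cover counting error only.

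**Figure D2:**
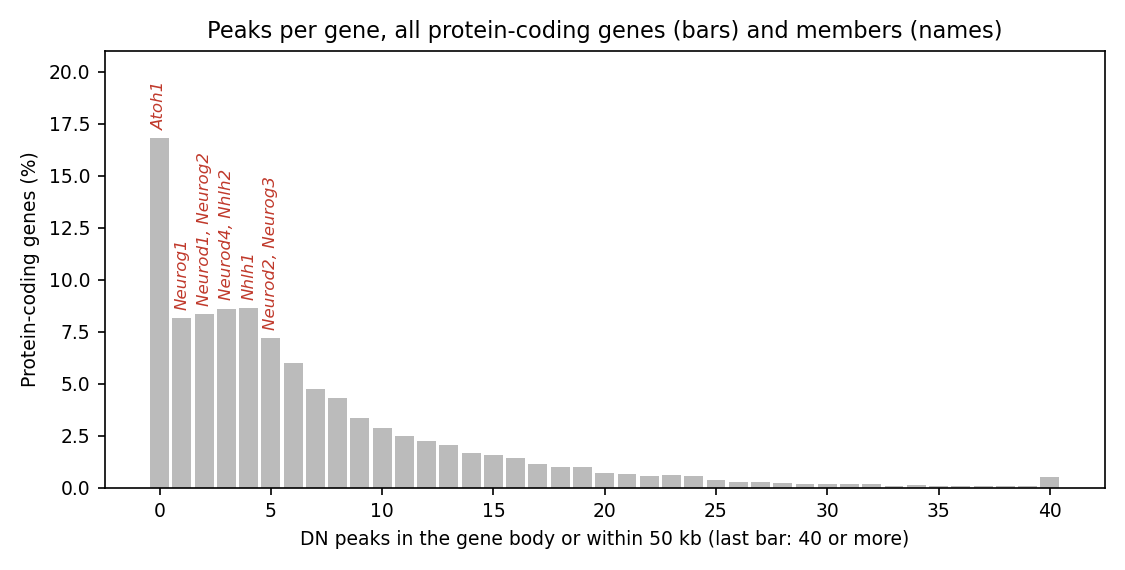
Bars give the percentage of all protein-coding genes (y axis) by the number of DN peaks in the body or within 50 kb (x axis, the last bar 40 or more), and the names mark where each of the 9 genes falls. All 9 lie at 0 to 5 peaks, within the tall part of the distribution.

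Per gene, the peak count ranged from 0 to 5 with a median of 3, against a median of 4 over all protein-coding genes (quartiles 2 and 9) and 3 over short genes (quartiles 0 and 8). *Neurod2* and *Neurog3*, with 5 peaks each, stood above 50.5% of all genes, and *Neurog1*, with 1, above 16.8%. Over all genes, the peak count rose with the number of genes in a window. Genes with no other protein-coding start in the window had a median of 2 peaks, those with 1 or 2 others a median of 4, those with 3 to 5 a median of 6, and those with 6 or more a median of 11. *Neurog2*, *Atoh1* and *Nhlh2*, with no other start, had 2, 0 and 3 peaks. With 1 or 2 others, *Neurod1*, *Neurod4* and *Neurog1* had 2, 3 and 1, below the median of 4, and *Neurod2* and *Neurog3* had 5 each. *Nhlh1*, with 3 others, had 4, below the median of 6. In peaks per 100 kb of window the medians were 2.68 for the 9 genes and 3.10 for all genes.

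The nearest peak lay a median of 7077 bp from the outer annotated start, against 221 bp for all protein-coding genes and 9223 bp for short genes, so that the 9 genes lay between them. Within 1 kb of the outer start 22.2% of the 9 had a peak, against 54.2% of all and 37.5% of short genes. By 10 kb the shares were 55.6, 65.0 and 50.7%, and by 50 kb they were 88.9, 81.1 and 68.7%. With 9 genes and 1 list, these differences are given without a test.

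**Figure D3:**
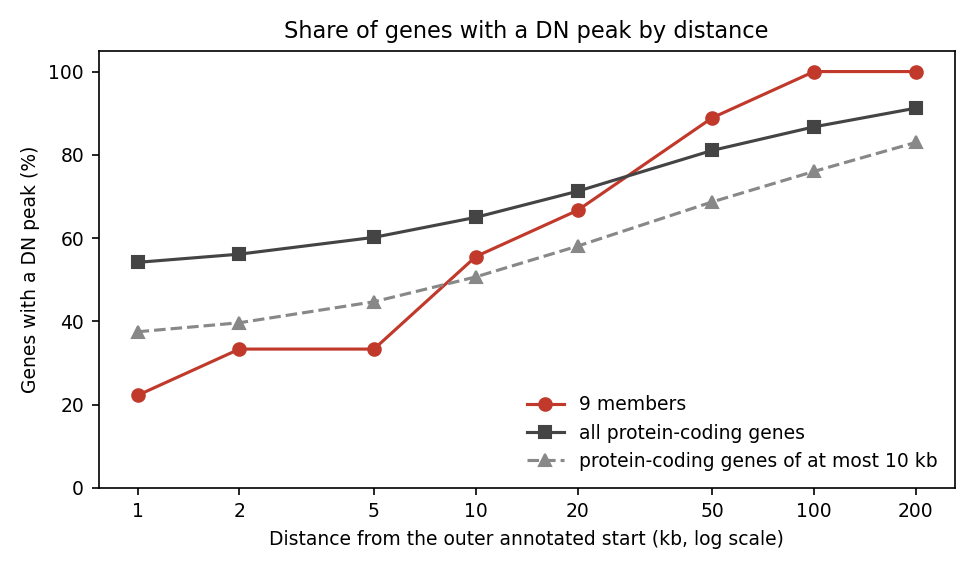
The percentage of genes with a DN peak (y axis) is plotted against the distance allowed from the outer annotated start (x axis, kb, log scale) for the 9 genes, all protein-coding genes and those of at most 10 kb. The line of the 9 genes begins lowest, at 22.2% for 1 kb, and reaches 88.9% at 50 kb, above both other lines.

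CpG-rich starts are usually accessible in many cell types. A start was called CpG-rich when the 1 kb around it had at least 50% GC and an observed-to-expected CpG ratio of at least 0.6, which held for 44.8% of protein-coding genes. Of those, 88.5% had a start-site peak. *Neurod1* (53.7% GC, ratio 0.679), *Neurog1* (68.8%, 0.756), *Neurog2* (63.1%, 0.851) and *Atoh1* (60.8%, 0.649) met it. *Neurod1* and *Neurog2* had the peak, and *Neurog1* and *Atoh1* did not. *Neurog1* had the highest GC content of the 9 starts and no peak within 27.2 kb. The 5 genes below the CpG limits, *Neurod2*, *Neurod4*, *Neurog3*, *Nhlh1* and *Nhlh2*, had no start-site peak, and 31.3% of all protein-coding genes below those limits had one.

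**Figure D4:**
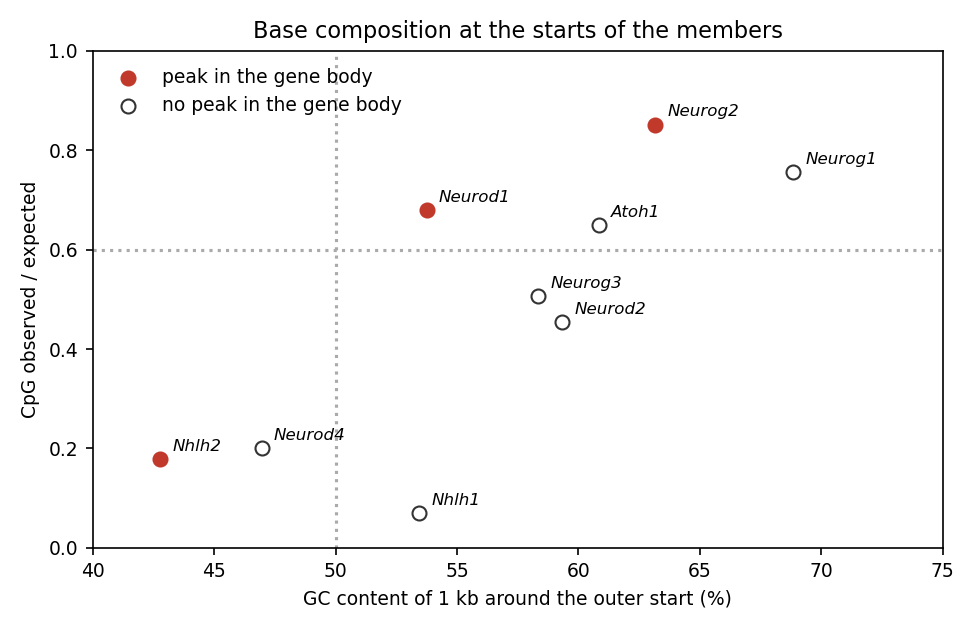
Each point is a gene by the GC content (x axis, %) and the observed-to-expected CpG ratio (y axis) of the 1 kb around its outer start, filled where a DN peak lies in the gene body, with dotted lines at the limits for a CpG-rich start. *Neurog1* and *Atoh1* lie in the upper right field as open points, and *Nhlh2*, at 42.8% GC, is filled although its start is not CpG-rich.

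E-boxes were counted on both strands of each peak. CAGATG was present in 11 of the 25 peaks (44.0%, 95% exact binomial interval 24.4 to 65.1%), against 32.2% of all DN peaks. CAGCTG was present in 9 (36%, 18.0 to 57.5%) against 30.9%. The longer word CAGATGG, which is counted within CAGATG, was in 7 (28.0%, 12.1 to 49.4%) against 11.5%. Of those 7 peaks 5 belonged to *Neurod4* and *Nhlh2*, and *Neurod1* and *Neurod2* had 1 each. The general E-box CANNTG was in 92.0 and 90.0%. CACGTG, the word of Myc-type bHLH factors, was in 12% and 9.49%, and CATATG was in 16% and 6.44%. CACGTG and CATATG were not among the words chosen at the outset.

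The peaks with CAGATG were not spread evenly over the genes. All 3 peaks of *Neurod4*, both of *Neurog2* and both peaks in the body of *Nhlh2* held it, with 6, 3 and 2 matches. *Neurod1* had it in 1 of 2 peaks, *Neurod2* and *Neurog3* each in 1 of 5, and *Nhlh1* in 0 of 4, as did *Neurog1* in 0 of 1. All 5 peaks that overlap the bodies of *Neurod1*, *Neurog2* and *Nhlh2* held CAGATG, 6 matches in all. The *Neurod1* match lay in the part of its peak upstream of the gene. In chromosome coordinates, the matches lay 235 bp from the peak centre in *Neurod1*, -27, 239 and -111 bp in *Neurog2*, and -31 and 50 bp in *Nhlh2*. Those in the second *Neurog2* peak and in the *Nhlh2* peak over coding sequence were in coding sequence. Over all peaks in the bodies of protein-coding genes of at most 10 kb, 25.1% (1340 of 5338) held CAGATG. The 5 peaks at start sites of neighbouring genes held none, beside 19.8% of all peaks at a start site, and 6 of the 15 elsewhere (40%) held it, beside 38.1% of all peaks not at a start site. These groups were formed after the values were seen, and no test was made of them.

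In the RefSeq promoters (250 bases before to 50 after a start), all 9 genes were matched, with 10 entries because *Neurod4* has 2. CAGATG was in 3 of the 10 entries, those of *Nhlh1*, *Nhlh2* and *Neurod2*, against 17.1% of 32619 promoters. CAGCTG was in 3, of *Nhlh2*, *Neurog3* and 1 *Neurod4* entry, against 16.4%. The *Neurod1* promoter was the one that overlapped a DN peak, and it held neither word, while its peak held a CAGATG farther upstream.

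The lists of related genes were read in the same way, against a start-site peak in 56.9% of all protein-coding genes and 38.1% of those of at most 10 kb. Of the heterodimer partners, *Tcf3*, *Tcf4* and *Tcf12* all had a start-site peak, with 14, 12 and 4 peaks in the body or within 50 kb. These genes are 24.1, 346 and 269 kb long, against 1.67 to 12.1 kb for the 9 proneural genes. Their windows are wider, and the counts are not scaled to length. The 4 Id inhibitors, *Id1*, *Id2*, *Id3* and *Id4*, which are 1.16 to 4.80 kb long, also all had a start-site peak, with a median of 6.5 peaks. Of the 9 Hes and Hey repressors 4 (44.4%, between the shares of all and of short genes) had one, *Hes1*, *Hes6*, *Hey1* and *Hey2*, and the other 5, *Hes2*, *Hes3*, *Hes5*, *Hes7* and *Heyl*, did not. Of the 13 Notch pathway genes 8 (61.5%, near the share of all genes) had one, the receptor gene *Notch2*, the ligand genes *Dll1*, *Jag1* and *Jag2*, the transcriptional effector *Rbpj* and its coactivators *Maml1*, *Maml2* and *Maml3*. The receptor genes *Notch1*, *Notch3* and *Notch4* and the ligand genes *Dll3* and *Dll4* did not.

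Further neural bHLH genes were read gene by gene. *Atoh7*, the retinal ganglion cell factor, had 3 peaks, of which 1 was at the start. *Neurod6*, which marks a subset of VTA DNs, had its nearest peak 30.9 kb from the start. *Ptf1a*, *Olig1*, *Olig2*, *Olig3*, *Tal1* and *Ferd3l* had no peak in the body or within 50 kb, while 83.2% of all protein-coding genes and 69.1% of the short ones had one. *Atoh8* had 8 peaks, of which 2 were in the body, *Bhlhe23* had 6, *Tal2* and *Ascl2* had 2 each and *Bhlhe22* had 1, in the body, and none of these 5 had a start-site peak. *Msgn1*, a factor of presomitic mesoderm, and *Bhlha9*, a factor of the limb, were read with them and had 2 and 7 peaks, none at a start site. Of the 14 muscle and mesoderm bHLH genes 4 had a start-site peak, *Twist2*, *Scx*, *Mesp1* and *Mesp2*, and the muscle determinants *Myod1*, *Myf5*, *Myf6* and *Myog* did not. The share with a start-site peak was 22.2% for the 9 proneural genes and 28.6% for the muscle and mesoderm list, beside the 38.1% of short genes and 56.9% of all genes.

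**Figure D5:**
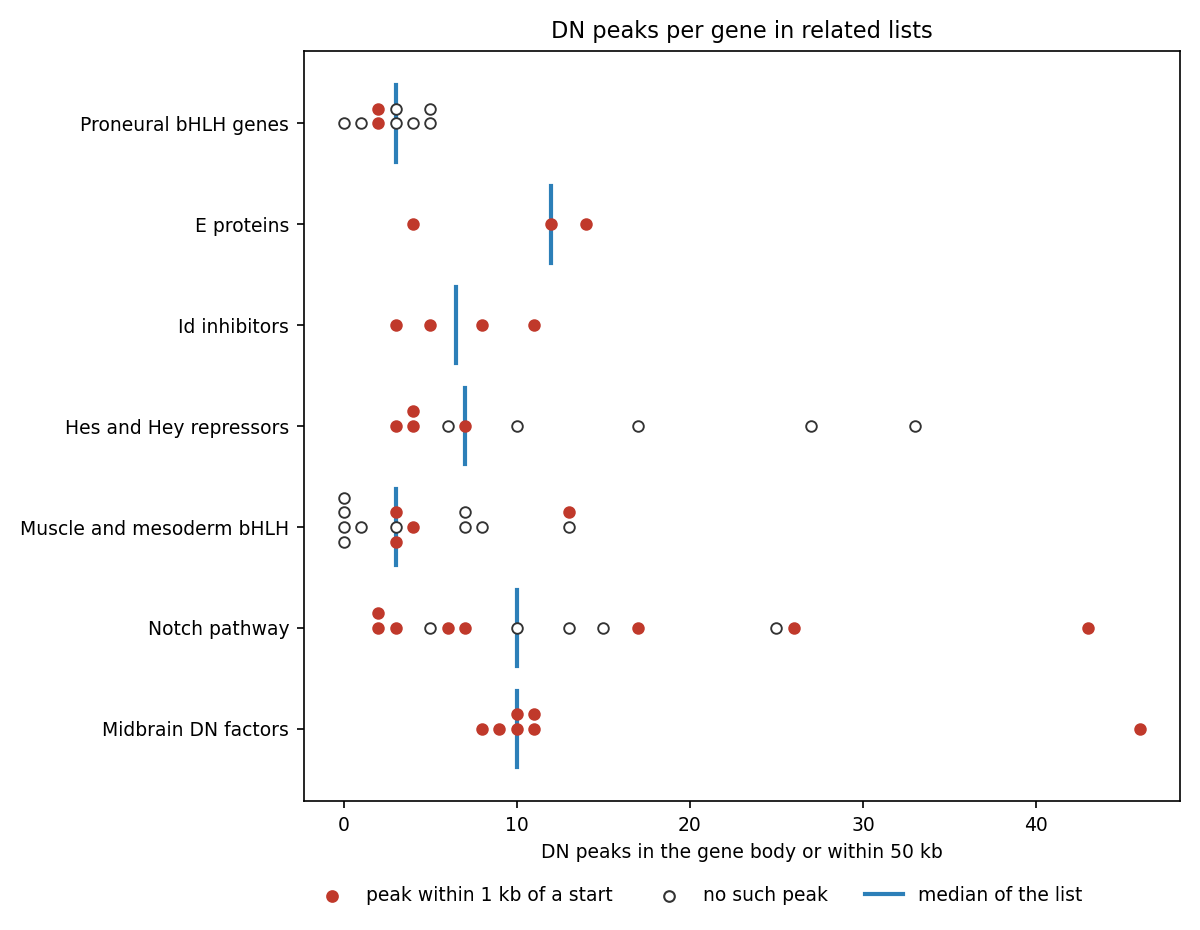
Each point is a gene by its number of DN peaks in the body or within 50 kb (x axis), filled where a peak lies within 1 kb of a start, for each list (rows), and the blue line is the median of the list. Every E protein, Id and midbrain DN factor point is filled, against 2 of 9 for the proneural genes. Counts are not scaled to gene length.

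For scale, the 7 transcription factors of midbrain DNs, *Nr4a2*, *Pitx3*, *Foxa1*, *Foxa2*, *Lmx1a*, *Lmx1b* and *En1*, all had a start-site peak and a gene-body peak, with 8 to 46 peaks in the body or within 50 kb. These genes are 4.09 to 160 kb long, and the counts are not scaled to length. The DN cluster had been picked by the gene score of *Th*, and further markers, *Foxa1*, *Foxa2*, *Lmx1b* and *Slc6a3* among them, were used to check that choice, so peaks at DN markers are not independent of the choice of nuclei. Of the marker lists, 11 of 11 DN markers had a start-site peak, against 0 of 4 astrocyte, 0 of 4 oligodendrocyte and 0 of 4 microglia markers, 1 of 3 GABAergic and 1 of 2 glutamatergic markers. All astrocyte, oligodendrocyte and microglia markers had a peak in the body or within 50 kb, with medians of 5.5, 5.5 and 6.5 peaks, and 2, 1 and 1 of them had a gene-body peak. Over all protein-coding genes, 56.9% had a start-site peak and 63.8% a gene-body peak. A peak in the body or within 50 kb was found for 83.2%, with a median of 4 peaks.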

How the data were processed

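Nuclei of midbrain VTA from male mice were profiled by snATAC-seq, and the authors mapped the reads to mm10, gated out doublets by DNA content when sorting nuclei, removed further doublets and clustered nuclei with ArchR, and called peaks on DN pseudobulks of both libraries. The deposited list holds positions only, in the unit other (chromosome, start and end), with no signal. Whether a later filter on how many nuclei share a peak had been applied to it is not given in the sources used here, and the depth per library is unknown from the list. Starts were read as counted from 0 and are printed counted from 1. Peaks were set against GENCODE M21 genes and starts of transcripts tagged basic, and sequence was read from GRCm38, which has the chromosome sequences of mm10.

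Overlap was at least 1 bp. Backgrounds were all 21755 protein-coding genes on chromosomes 1 to 19 and X, and those of at most 10 kb. Intervals are exact binomial at 95% and cover counting error. No test was made, because both libraries form 1 list. The genes named were all 9 members, neighbours with a start-site peak in a member window, and every gene of the related lists as far as the text needed them, with cell type markers only as counts. Neighbours without a start-site peak, the midbrain DN factors, the markers *Th* and *Slc6a3* and noncoding genes of the windows were named outside that rule. A further neural bHLH gene, summaries over its list and the details of an *Nhlh2* peak outside the gene are not reported here. Members and lists were chosen with earlier results of these data known. The steps recovered all planted overlaps and words on simulated data. Alternatives were other distances, start-site widths, transcript sets, backgrounds, peak parts and E-box words, and CpG limits added after the data were seen. Python 3.11.15 was used with numpy 2.4.6, pandas 2.3.3, scipy 1.17.1, pysam 0.24.0 and matplotlib 3.10.9.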

Additional observations from a re-analysis of the deposited data

How the results depend on the processing

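Of the 29 alternatives, 22 left the value within the limits set and 7 moved it. The limit was 1.5 times for counts, medians and their ratio, and the exact binomial interval (24.4 to 65.1%) for the share of peaks with CAGATG. The 25 peaks became 8 within 10 kb of the genes and 40 within 100 kb. The 2 members with a start-site peak became 1 when the peak had to cover the start base, where *Neurog2* is lost. The median of 3 peaks per member fell to 1 at 10 kb. The ratio of that median to the median of all protein-coding genes was 0.75, and was 0.375 at 100 kb, since the median of all genes rose to 8 there and that of the members stayed at 3. It was 1 against genes of at most 10 kb. The share of peaks with CAGATG went from 44.0 to 24.0% in the central 200 bp, where 15.1% of all peaks held it. With stricter CpG limits (GC of at least 55% and a ratio of at least 0.65), chosen after the data were seen, 1 of 2 CpG-rich members (*Neurog1*, with *Neurog2* the other) lacked a start-site peak, against 2 of 4. No paired analysis was possible because both libraries are pooled in 1 list with no value per sample, and for the same reason neither library could be left out. A region without a peak is one where none was called, at a depth the list does not give.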

Other observations

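The *Neurod4* peak 34.4 kb upstream of the start, which lies nearer to *Tespa1*, held 4 CAGATG and 2 CAGCTG words within its 500 bp. Among all DN peaks, 86 of 55326 (0.155%) held at least 4 CAGATG and 28 (0.0506%) held at least 6 of both words. The peak was picked out after its values were seen. Per kb of sequence, CAGATG occurred 1.36 times in the 25 peaks of the proneural genes and 0.810 times in all DN peaks, and CANNTG 5.36 and 5.21 times. The GC content of the 25 peaks had a median of 58.2% (40.4 to 70.2%), against 52.0% for all DN peaks.

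Some peaks of the windows were also near starts of noncoding genes. The *Neurod2* peak 45.2 kb downstream of the start lay 961 bp from a start of *Gm20644*, and the peak at *Stard3* lay 330 bp from a start of *1700003D09Rik*. The body of *Neurod1* overlapped the long noncoding RNA gene *Gm26755* on the opposite strand over 2767 bp.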
